A study of Mus musculus with 6 samples.

Results

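CXC chemokine genes and the receptors of the Cxcl12 axis were examined in the quadriceps muscle of mice after volumetric muscle loss, an injury in which a piece of the muscle is cut out. The 8 genes are the ligands Cxcl12, Cxcl14, Cxcl16, Cxcl1, Cxcl9 and Cxcl10 and the receptors Cxcr4 and Ackr3. They were chosen by their place in the family, with the results of the deposited genotype comparison for these genes already known, and 7 of the 8 are among the 14016 rows of the deposited table. Cxcl1 is not listed.

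The study sequenced polyadenylated RNA of 3 WT mice and 3 GATA-1 mutant mice at day 7. The WT mice were female C57BL/6 of 10 to 12 weeks at surgery, and age, sex and strain background were not given separately for the mutant in the sources used here. The mutant is the eosinophil-deficient ΔdblGATA line, in which a palindromic GATA site in the Gata1 promoter is deleted. Gata1 is also a factor of red cell, platelet and mast cell development. All 6 mice had the same injury in both legs, no scaffold was implanted, and the methods describe saline in the defect of control injuries.

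One measurement per gene was used, the authors' mean over all 6 samples in log2 CPM (CPM counts the reads of a gene relative to the size of its library). The table otherwise holds only the fold changes and test values of the authors' own genotype comparison, which are not used here, and no value of a single mouse was analysed. The levels below therefore describe injured muscle of both genotypes together, and for a gene that differs between them the mean lies between the levels of the groups, which were not analysed here. They carry no SD, no order between genes could be tested, the depth of each library is unknown, and no difference between WT and mutant is reported.

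CXC chemokines are small secreted proteins whose first pair of conserved cysteines is split by a single residue, and they steer leukocytes through G protein-coupled receptors. Those with a glutamate-leucine-arginine motif before the cysteines, such as Cxcl1, draw neutrophils through Cxcr2, while the interferon-induced Cxcl9 and Cxcl10 draw T and NK cells through Cxcr3. Cxcl12 is made by stromal and endothelial cells and is known for holding stem cells and leukocytes in tissue. It signals through Cxcr4, and Ackr3 binds it without classical G protein signalling and removes it from the extracellular space.

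The sequence before the gene start is shown for Cxcl12, the ligand of the axis, and for the 3 inducible ligands Cxcl1, Cxcl9 and Cxcl10, as these carry the motif matches described next. Each run is the 250 bases upstream of the RefSeq gene start on GRCm38.p6, written 5′ to 3′ on the strand of the gene. The windows are chr6:117168285-117168534 (plus strand) for Cxcl12, chr5:90890995-90891244 (plus strand) for Cxcl1, chr5:92328080-92328329 (minus strand) for Cxcl9 and chr5:92348890-92349139 (minus strand) for Cxcl10. Capitals mark matches, on either strand, to the interferon response element ISRE (GAAANNGAAA), the interferon-gamma site GAS (TTCNNNGAA), NF-kB, the hypoxia response core (ACGTG), the GC box (GGGCGG) and the TATA box (TATAAA). The NF-kB letters were GGGRNNYYCC, where R is A or G, Y is C or T and N is any base. Matches to different motifs did not overlap in these windows.
Cxcl12: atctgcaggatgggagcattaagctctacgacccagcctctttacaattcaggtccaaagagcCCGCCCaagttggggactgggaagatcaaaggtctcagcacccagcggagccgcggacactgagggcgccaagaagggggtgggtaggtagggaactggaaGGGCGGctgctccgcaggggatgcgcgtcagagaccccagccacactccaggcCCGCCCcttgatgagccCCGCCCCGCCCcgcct
Cxcl1: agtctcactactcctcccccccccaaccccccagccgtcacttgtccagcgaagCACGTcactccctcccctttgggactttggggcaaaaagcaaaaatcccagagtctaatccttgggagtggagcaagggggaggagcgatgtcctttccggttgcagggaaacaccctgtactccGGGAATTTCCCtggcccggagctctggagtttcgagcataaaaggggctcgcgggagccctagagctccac
Cxcl9: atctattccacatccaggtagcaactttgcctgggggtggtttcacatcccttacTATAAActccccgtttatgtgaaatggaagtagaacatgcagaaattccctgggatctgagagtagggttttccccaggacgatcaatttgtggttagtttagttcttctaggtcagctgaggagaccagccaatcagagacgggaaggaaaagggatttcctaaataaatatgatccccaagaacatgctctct
Cxcl10: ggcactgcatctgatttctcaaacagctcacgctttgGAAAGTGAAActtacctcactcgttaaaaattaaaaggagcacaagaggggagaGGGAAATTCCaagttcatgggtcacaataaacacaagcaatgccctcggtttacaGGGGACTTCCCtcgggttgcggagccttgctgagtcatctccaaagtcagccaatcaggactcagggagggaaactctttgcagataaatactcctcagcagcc

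The window of Cxcl10 held 1 ISRE match, from base -213 to -204 counted from the gene start, and 4 NF-kB matches that fall into 2 stretches, from -159 to -150 and from -104 to -94. The other interferon-induced ligand, Cxcl9, had no match to either in its window, and its 1 match was to the TATA box letters, at -195 to -190. Cxcl1 had 2 overlapping NF-kB matches on opposite strands in 1 stretch, from -71 to -61, and 1 hypoxia response core. Among 32851 upstream windows of the same length in RefSeq, 2.98% held an ISRE match, 7.25% an NF-kB match, 7.02% a GAS match and 16.6% a hypoxia response core.

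A GC box was matched in 3 of the 7 member windows, those of the Cxcl12 axis, against 32.7% of all windows. Whether it is particular to the axis was not tested. Cxcl12 had 5 matches in 4 stretches, Cxcr4 had 3 and Ackr3 had 1. A TATA box, held by 12.4% of windows, was matched close to the start of Cxcr4 (-32 to -25) and of Ackr3 (-8 to -3). Cxcl14 had 1 ISRE match and 1 GAS match. The window of Cxcl12 was 64.4% G and C, that of Cxcr4 61.2% and that of Ackr3 54.0%, against a median of 52.4% over all windows. Cxcl14 and Cxcl1, without a GC box, had 59.6% and 59.2%, Cxcl10 had 48.0% and Cxcl9 had 44.4%. A match is a stretch of letters and not a measured binding site. A window without a match may still hold a site that departs from these letters. No window was found for Cxcl16.

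**Figure D1:**
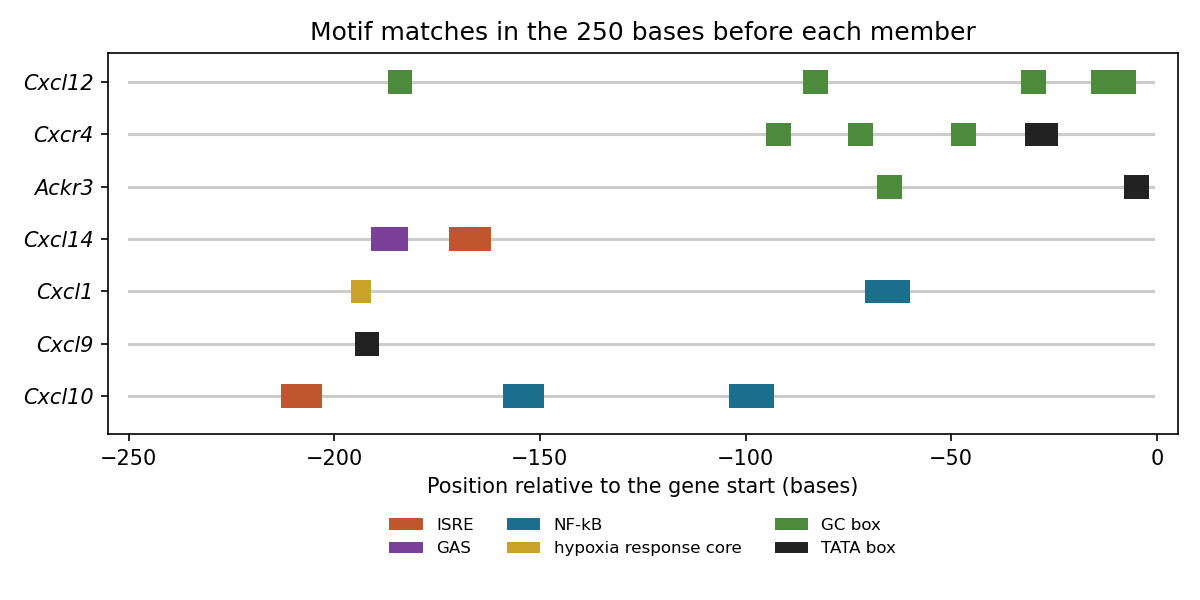
Matches to the 6 motifs in the 250 bases before each of 7 members, with position relative to the gene start in bases on the x axis, one line per gene and one color per motif. GC boxes lie in the windows of Cxcl12, Cxcr4 and Ackr3, and NF-kB matches in those of Cxcl1 and Cxcl10.

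Cxcl12 had a mean of 6.45 log2 CPM, a geometric mean of 87.5 CPM. Its gene (ENSMUSG00000061353) overlaps no other and lies on the plus strand of chromosome 6, from 117168535 to 117181367 in the GENCODE M21 annotation of GRCm38. Cxcl14, a chemokine made without stimulation in many tissues, had a mean of 5.24 log2 CPM, a geometric mean of 37.9 CPM. Its gene (ENSMUSG00000021508) is at 56288643 to 56296551 on the minus strand of chromosome 13. Values in log2 CPM are given for each gene by itself, since a long transcript gathers more reads than a short one.

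Cxcl16 is made as a membrane protein that can hold cells by Cxcr6 and take up oxidized lipoprotein, and its soluble form is released by cleavage. It had a mean of 4.22 log2 CPM, a geometric mean of 18.7 CPM. Its gene (ENSMUSG00000018920, chromosome 11, 70453983 to 70459984, minus strand) overlaps Zmynd15 on the opposite strand by 552 bases, and 21.6% of the 31-base words of its longest coding transcript also occur in transcripts of Zmynd15. Reads from these words could be assigned to either gene, as the strandedness of the libraries is not given in the sources used here, so the value of Cxcl16 is uncertain. Zmynd15 itself had a mean of 1.54 log2 CPM.

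Cxcl9 and Cxcl10 had means of 3.01 and 1.72 log2 CPM, geometric means of 8.05 and 3.28 CPM. Both are on the minus strand of chromosome 5, Cxcl9 (ENSMUSG00000029417) from 92321347 to 92328079 and Cxcl10 (ENSMUSG00000034855) from 92346638 to 92348889. Cxcl10 lies within the span of Art3, a gene of the opposite strand with a mean of 6.43 log2 CPM, yet 0% of the 31-base words of Cxcl10 occurred in another gene. For Cxcl9 the share was 0.599%, and it was 0.161% for Cxcl12, 0.113% for Cxcr4 and 0% for Ackr3 and Cxcl14.

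Cxcl1 (ENSMUSG00000029380, chromosome 5, 90891241 to 90893115, plus strand), the keratinocyte-derived neutrophil attractant, was not in the table under this or an older symbol. By the filter stated in the methods, a listed gene was above 1 CPM in at least 3 samples. The table fits this poorly at its low end, as 1198 genes (8.55%) had a mean under 0 log2 CPM, and the lowest mean, -4.08, would need the other 3 samples to average below -8.15. What a missing row says of a gene's level is therefore uncertain, and the table gives no further value for Cxcl1.

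**Figure D2:**
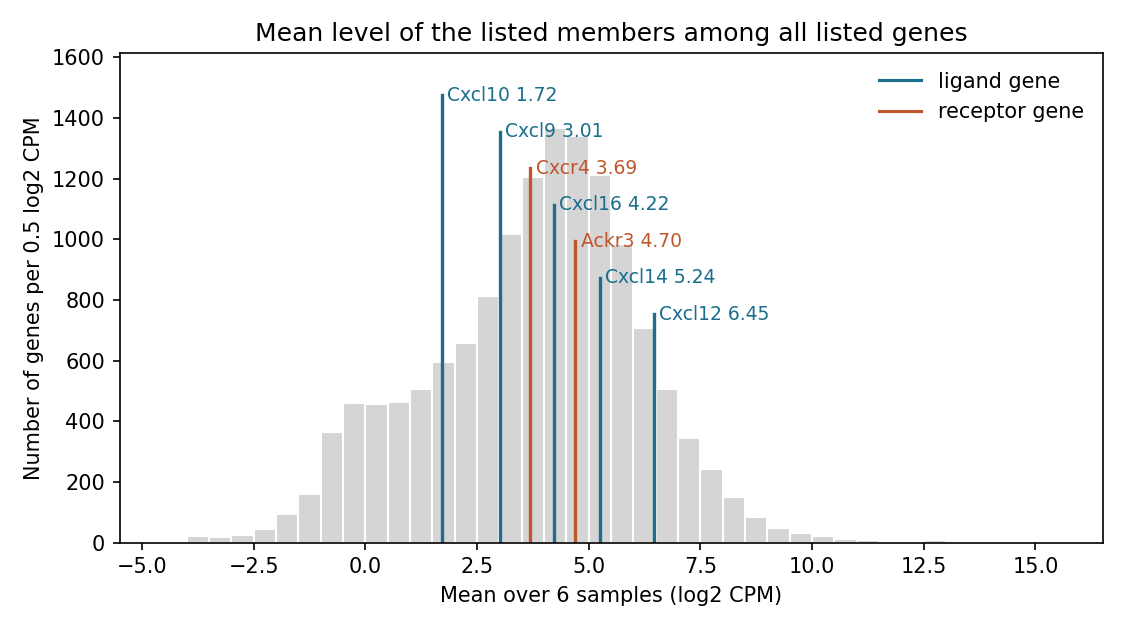
Histogram of the authors' mean over 6 samples for 14016 genes in bins of 0.5 log2 CPM, with the number of genes on the y axis and a line at each of the 7 listed members (blue for ligands, orange for receptors). The lines run from 1.72 log2 CPM for Cxcl10 to 6.45 log2 CPM for Cxcl12, with no account taken of transcript length.

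Both receptors of Cxcl12 were listed. The scavenging receptor gene Ackr3 (ENSMUSG00000044337, chromosome 1, 90203980 to 90216751, plus strand) had a mean of 4.70 log2 CPM. The signalling receptor gene Cxcr4 (ENSMUSG00000045382, chromosome 1, 128588199 to 128592293, minus strand) had a mean of 3.69 log2 CPM, a geometric mean of 12.9 CPM. No other annotated gene overlaps either of them.

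The members were ordered only per length, as the mean in log2 CPM minus the log2 of the longest coding transcript in kb. On this scale Cxcl14 came first at 4.37 and Cxcl12 second at 3.96, above 82.5% and 77.6% of the 13920 genes with a known length, and both above the upper quartile of 3.78. Ackr3 at 3.09, Cxcr4 at 2.84 and Cxcl16 at 2.79 lay between the median of 2.27 and that quartile. Cxcl9 at 1.48 and Cxcl10 at 1.28 lay below the median, above 36.7% and 33.8% of genes. From the first to the last of the 7 genes the difference was 3.09 on the log2 scale, or 8.54-fold. It was 10.4-fold with the median coding length, 14.1-fold with the longest transcript of any type and 23.1-fold with the shortest coding transcript.

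Cxcl12 stood 1.12 above Cxcr4 and 0.87 above Ackr3 on the log2 scale per kb, which is 2.17-fold and 1.83-fold, but with the shortest coding transcripts it was below Ackr3, at a difference of -0.47. Ackr3 stood 0.25 above Cxcr4, or 1.19-fold. Cxcl9 minus Cxcl10 was 0.20 per kb with their longest coding transcripts of 2889 and 1353 nt, 0.054 with the median coding length and -0.11 with the shortest, so their order depended on the length used. Without values per mouse, no pair of neighbours in this order can be said to differ beyond the spread between mice.

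The length that fits each gene depends on its isoforms, which the gene-level table does not separate. Cxcl12 has 3 coding transcripts of 5627, 3132 and 1878 nt in GENCODE M21, and Ackr3 has 2, of 3065 and 404 nt. With the shortest coding transcript of each gene Ackr3 came first at 6.01, Cxcl12 next at 5.54 and Cxcl14 after it at 4.69. The first place of Ackr3 and the 23.1-fold span above rest on its 404 nt transcript. Whether the shortest transcripts code for whole proteins was not checked. With the median coding length Cxcl12 came first at 4.80 and Cxcl14 second at 4.52. Under all 4 choices of length Cxcl12, Cxcl14 and Ackr3 were the first 3 members, and Cxcl9 and Cxcl10 the last. Cxcr4 came above Cxcl16 each time, but this order could not reverse. Cxcl16 stayed at 2.79 throughout, while shorter lengths only raise Cxcr4 from its 2.84 with the longest coding transcript. By the rule for small shifts given below, the gap between these values counts as none, so Cxcr4 and Cxcl16 are not ordered.

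**Figure D3:**
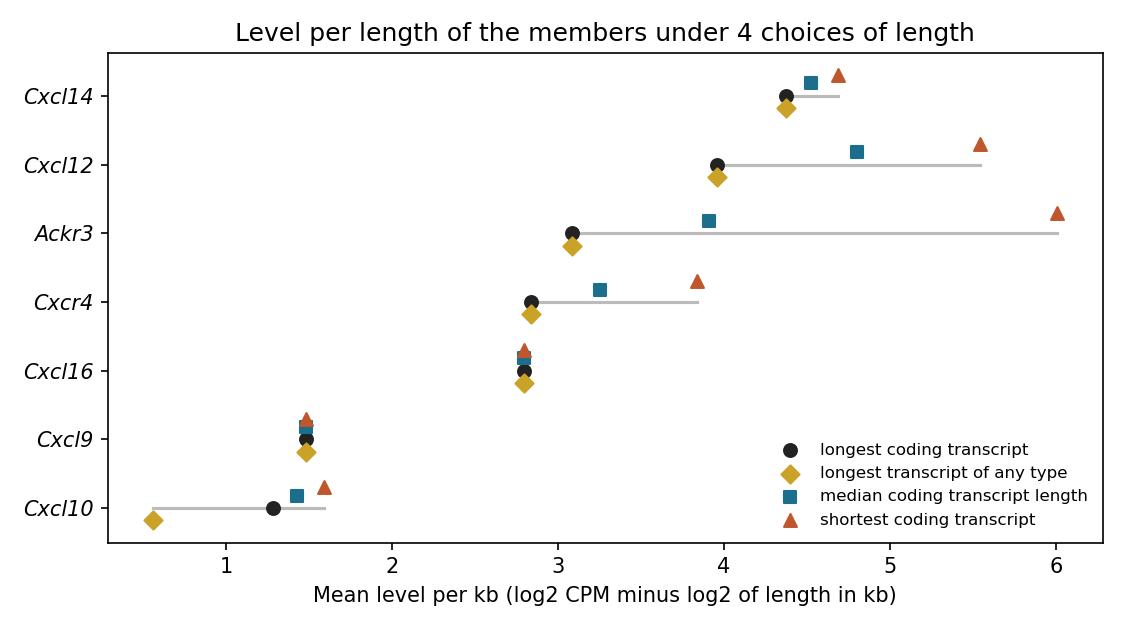
Mean level per kb of the 7 listed members (x axis, log2 CPM minus log2 of the length in kb), one row per gene, with a marker for each of 4 choices of transcript length and a gray line over their range. The range is widest for Ackr3, from 3.09 to 6.01, and Cxcl16 and Cxcl9 have a single value of 2.79 and 1.48.

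The ligands were then set beside their known receptors, except Cxcl14, with which no receptor was paired. Of 15 CXC ligand genes 7 were listed, and of 8 receptor genes that bind CXC ligands 4 were. Besides the members, the platelet chemokine genes Pf4 and Ppbp were listed at 4.53 and -0.94 per kb, and the receptor genes Ackr1 and Cxcr3 at 1.04 and -0.98 per kb. Ackr1, which takes up inflammatory chemokines on venules and red cells, overlaps Cadm3 on the same strand by 493 bases, so its value is uncertain.

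Cxcr3, the receptor of Cxcl9 and Cxcl10, had a mean of -0.19 log2 CPM. A mean under 0 requires that at least 1 of the 6 samples was below 1 CPM. Cxcr6, the receptor of Cxcl16, and Cxcr2, the receptor of Cxcl1, were not listed, nor were Cxcr1 and Cxcr5. Also not listed were Cxcl2, Cxcl3, Cxcl5 and Cxcl15, which carry the neutrophil-attracting motif like Cxcl1, and Cxcl11, Cxcl13 and Cxcl17. Cxcl11 is annotated as a polymorphic pseudogene.

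The 14 genes that carry or end the signal of these receptors were all listed, with a median of 2.82 per kb. Gnai2, the inhibitory G protein subunit that Cxcr4 uses in leukocytes, had the highest level of the list at 6.59 per kb, and Gnai3 and Gnai1 had 3.70 and 1.89. The arrestins, which bind both receptors after ligand and drive the uptake of Cxcr4, stood at 3.70 per kb for Arrb2 and 2.05 for Arrb1. Grk2, a kinase that marks active receptors and is listed under its older symbol Adrbk1, had 4.34, Grk6 had 2.81, Grk5 had 1.15 and Grk3 had 0.76. Itch, a ubiquitin ligase that sends Cxcr4 to the lysosome, was at 2.83 per kb. Of the G protein signalling regulators, Rgs2 had 3.60, Rgs16 had 1.05 and Rgs1 the lowest level of the list at -1.41.

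The 6 genes of enzymes that cut CXC ligands were also all listed. Mmp2 and Mmp14, which trim the start of Cxcl12, stood at 6.11 and 5.84 per kb, above all members under the longest coding transcript. Adam10 and Adam17, which release Cxcl16 from the membrane, were at 3.52 and 3.27 per kb. Mmp9 had 2.14, and Dpp4, which inactivates Cxcl12 and Cxcl10 by removing a dipeptide, had 1.27. These are transcript levels of whole muscle and say nothing of enzyme activity.

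The tissue label was checked by marker lists on the same scale. All 7 markers of skeletal muscle were listed, from 5.92 per kb for Ttn to 13.8 for Acta1, and all 5 of regenerating muscle. The 5 markers of fibro-adipogenic progenitors ran from 2.95 to 9.10, the 5 of endothelium from 2.19 to 4.63 and the 6 of macrophages and monocytes from 1.16 to 4.75. Of 6 neutrophil markers 3 were listed, S100a8 at 1.57, S100a9 at 0.45 and Csf3r at -0.04, and of 10 eosinophil markers 1 was listed, Ear2 at 0.61, while 0 of 3 B cell markers were. The 6 T and NK cell markers ran from -2.38 to 0.80. Of the 4 markers of megakaryocytes and platelets only Pf4 was high, at 4.53. Itga2b was at 0.31, Gp1ba at 0.02 and Ppbp at -0.94. Gata1, the targeted gene, was absent from the table and gave no check of the genotypes. In bulk muscle the number of cells and the RNA per cell cannot be told apart, and which cells the members' transcripts came from was not tested.

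**Figure D4:**
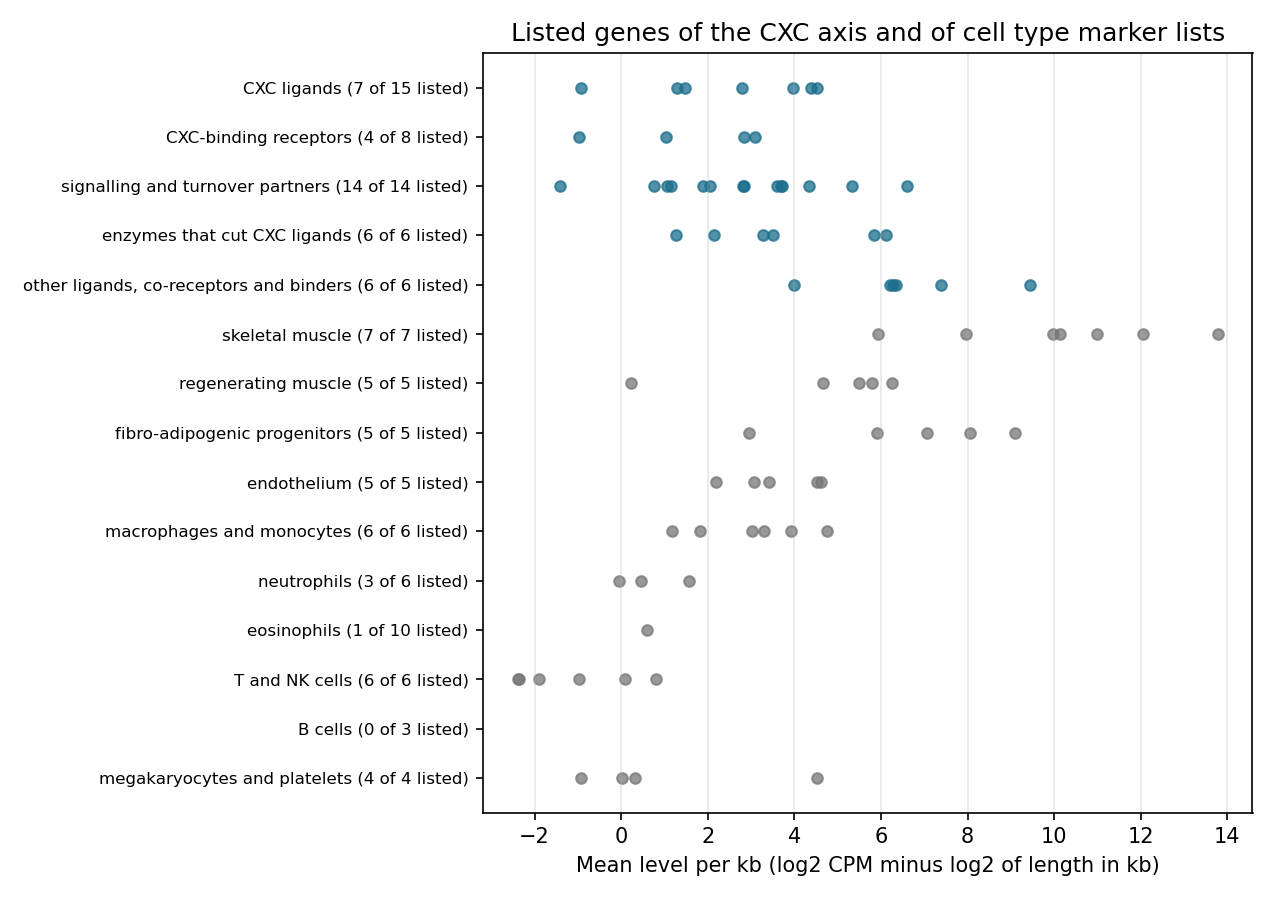
Mean level per kb (x axis, log2 CPM minus log2 of the length in kb) of each listed gene of the CXC axis (blue) and of the cell type marker lists (gray), one point per gene and one row per list, with the number listed in the row name. The CXC ligands run from -0.94 to 4.53 and the skeletal muscle markers from 5.92 to 13.8.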

How the data were processed

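RNA of 6 muscles was sequenced at day 7. The authors pseudoaligned paired-end reads with Kallisto, assigned transcripts to genes in R, computed CPM with edgeR, removed genes that did not exceed 1 CPM in 3 or more samples, took logs, normalized by trimmed means of M-values, and compared genotypes with limma. The deposited log2 values used here are the authors' mean log2 CPM per gene over all samples. Its fold change, t, p-value, adjusted p-value and B columns hold the authors' own comparison and were not used, so no genotype test was made and the planned test was not run. The labels name the build GRCm39. The index is not given in the sources used here, and the table carries some older symbols.

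Of the symbols, 13434 were found as such in GENCODE M21 (GRCm38) and 486 by a RefSeq synonym, giving a length for 99.3% of the 14016 rows, 1 of which has no symbol. Coordinates are GRCm38 throughout. Words of 31 bases were compared on both strands with transcripts of other genes. Promoter windows of 7 members came from RefSeq (GRCm38.p6). The members were taken by symbol, and all genes named were set in lists by function, except Art3, Zmynd15 and Cadm3, named for their overlap. The members and lists were chosen with earlier results of these data known. Ranks and levels per kb were computed in Python 3.11 with pandas 2.3.3 by code tested on simulated data. Precision is limited by the lack of values per mouse.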

Additional observations from a re-analysis of the deposited data

How the results depend on the processing

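No paired analysis was possible because the value used is 1 mean over all 6 samples. For the same reason the replicate block, leaving out each mouse, median centring and the minimum mean in a genotype test were not run. As no spread is available, a shift under 0.1 on the log2 scale was taken as none.

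Differences between members in mean level per kb (log2) depended on the transcript length used. With the longest transcript of any type, only Cxcl10 among the listed members had a new length, 2230 nt in place of 1353 nt. Cxcl9 minus Cxcl10 was then 0.92, and the other 5 of 6 differences could not change, as their lengths were the same. With the median coding length, Cxcl12 minus Cxcr4 was 1.55, Ackr3 minus Cxcr4 0.65, Cxcl9 minus Cxcl10 0.054 and Cxcl14 minus Cxcl16 1.73, while Cxcl12 minus Cxcl14 turned from -0.41 to 0.28. With the shortest coding transcript, Cxcl12 minus Cxcr4 was 1.70, Ackr3 minus Cxcr4 2.17 and Cxcl14 minus Cxcl16 1.90, while Cxcl12 minus Ackr3 turned to -0.47, Cxcl9 minus Cxcl10 to -0.11 and Cxcl12 minus Cxcl14 to 0.85. The share of genes with a lower mean in log2 CPM ran from 20.6% for Cxcl10 to 89.0% for Cxcl12, with no account of length. When only protein-coding genes were counted, it moved by less than 5 percentage points for all 7 members. A larger move was not possible there, since 13676 of the 14016 rows are protein-coding genes, so that setting says nothing of stability. When genes with a mean under 1 log2 CPM were left out, the share moved by more than 5 percentage points for 5 of 7 members. Shorter lengths raise the level per kb by construction. The values of Ackr3 with the median and shortest coding lengths depend on its 404 nt transcript, which was not checked for a whole coding sequence.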

Other observations

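Proteins outside the CXC family that share its receptors or hold its ligands had transcripts at high mean levels in the injured muscle of both genotypes together. Macrophage migration inhibitory factor, encoded by Mif, can act on Cxcr4 and on Cd74, and the genes stood at 6.21 and 7.38 per kb (log2 CPM minus log2 of the longest coding transcript in kb). Hmgb1, a nuclear protein that binds Cxcl12 once outside the cell, was at 6.35 per kb, and Ubb, which encodes the ubiquitin that can also bind Cxcr4, at 9.44. The heparan sulfate proteoglycan gene Gpc1 was at 6.28 per kb, and Sdc4, another such gene, had a mean of 5.30 log2 CPM before length was taken into account. Sdc4 was within 0.1 on the log2 scale of Cxcl12 at 3.96 per kb, a gap taken as none, and the other genes of this list lay above Cxcl12. With the shortest coding transcript Cxcl12 itself was at 5.54, but the genes of this list were given only with the longest. The members of the list were put together by function, and no difference between these genes could be tested.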
